A study of Mus musculus with 11 samples.

Results

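The RNA levels of 10 genes for the binding and engulfment of apoptotic cells were followed across mouse macrophage libraries. The genes were taken by name, 10 of the 42375 named genes in the count table: the receptor kinases Mertk, Axl and Tyro3, their ligand Gas6, the integrin subunit Itgb5, the transglutaminase Tgm2, the receptors Stab1 and Lrp1, and the signalling partners Elmo1 and Dock1. All 10 passed the filter on low counts, Tyro3 with only 3 to 13 counts per library.

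The libraries came from bone marrow derived macrophages of C57BL/6 mice, and every group received a gapmer, an antisense strand through which cells cleave the matching RNA, for 16 hours. The M1 KD group (2 libraries, numbered 5 and 6) and the M1 NS group (3 libraries) were labelled M1, and the M0 KD and M0 NS groups (3 libraries each) were labelled M0. KD stands for the gapmer against the long noncoding RNA MERRICAL and NS for the comparison gapmer. The series set KD against NS in each state, to learn how the loss of MERRICAL alters the transcriptome. No source used here gives the M1 stimulus or the meaning of the library numbers, and the MERRICAL level was not analysed here. If the numbers mark batches, batch and knockdown cannot be told apart in M1 cells, since no NS library carries the number 5 or 6. Nothing states that replicates were separate cultures or animals, so p-values measure the spread between these libraries only, which may be technical.

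Total counts ran from 30040632 to 43250392 per library, and 15024 genes were tested. All 10 macrophage markers, among them Csf1r and Cd68, exceeded 1 CPM in at least 1 library of every group, and their summed level was 13594 to 16162 CPM in M1 KD, 12112 to 13751 CPM in M1 NS, 20522 to 21798 CPM in M0 KD and 26177 to 27565 CPM in M0 NS. Lyz2 was the largest part of that sum, at means of 7256 CPM in M1 KD, 5639 CPM in M1 NS, 13186 CPM in M0 KD and 17460 CPM in M0 NS. CPM is a gene's count per effective library total, brought to a common scale by edgeR's trimmed-mean (TMM) factors. In such bulk libraries, fewer cells of a type and less RNA per cell cannot be told apart. A gene is called here where edgeR's quasi-likelihood test gave a p under 0.05 after Benjamini-Hochberg adjustment across those genes. By this rule, 3 of the 10 macrophage markers were higher and 6 lower in M1 NS against M0 NS, where 26.9% and 28.6% of all genes were.

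Efferocytosis is the clearance of apoptotic cells by phagocytes. Dying cells expose phosphatidylserine, which macrophages bind directly through receptors such as Stab1 or through bridging proteins such as Gas6, which links the lipid to Mertk, Axl and Tyro3 (the TAM receptors). Receptor signals converge on the Elmo1 and Dock1 complex, an activator of the GTPase Rac that drives the actin cup around the corpse.

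The RefSeq table on GRCm38.p6 gave start-site windows for 9 of the 10 genes. The 250 bases before the start site are shown for Gas6, the called gene higher in M1 KD than in M1 NS, for Stab1 and Lrp1, the lower genes with the largest changes, and for Mertk, the most abundant TAM receptor. They are written 5′ to 3′ on the gene's own strand, and capitals mark matches to the motifs searched.
Gas6, chr8:13494536-13494785, minus strand: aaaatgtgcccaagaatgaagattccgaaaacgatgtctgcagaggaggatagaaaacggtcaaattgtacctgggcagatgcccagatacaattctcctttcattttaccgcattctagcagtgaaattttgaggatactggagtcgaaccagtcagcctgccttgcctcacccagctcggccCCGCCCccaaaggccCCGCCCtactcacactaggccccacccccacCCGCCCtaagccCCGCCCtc
Mertk, chr2:128698665-128698914, plus strand: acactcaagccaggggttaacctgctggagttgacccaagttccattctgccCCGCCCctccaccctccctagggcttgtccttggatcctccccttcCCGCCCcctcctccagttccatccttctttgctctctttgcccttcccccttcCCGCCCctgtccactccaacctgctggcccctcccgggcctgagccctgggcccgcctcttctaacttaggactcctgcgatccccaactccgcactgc
Stab1, chr14:31168642-31168891, minus strand: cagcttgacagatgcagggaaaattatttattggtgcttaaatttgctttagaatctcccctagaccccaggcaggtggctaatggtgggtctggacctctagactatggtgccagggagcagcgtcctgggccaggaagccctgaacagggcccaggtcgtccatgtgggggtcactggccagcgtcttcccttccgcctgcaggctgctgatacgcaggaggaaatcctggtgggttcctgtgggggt
Lrp1, chr10:127621149-127621398, minus strand: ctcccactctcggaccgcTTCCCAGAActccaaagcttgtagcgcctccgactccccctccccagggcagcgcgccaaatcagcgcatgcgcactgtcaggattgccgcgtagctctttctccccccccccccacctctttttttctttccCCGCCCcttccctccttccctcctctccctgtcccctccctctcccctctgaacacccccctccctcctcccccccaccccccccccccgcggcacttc
Both strands were searched for 9 motifs, and the letters found in these windows were GGGCGG (the Sp1 motif, CCGCCC on the other strand) and TTCNNNGAA (the GAS motif that STAT proteins bind). The Sp1 letters occurred 4 times before Gas6, 3 times before Mertk, in a single place before Lrp1 and not before Stab1. In all, 8 of the 9 genes held them, and 32.7% of the 32851 promoters in the table did. These letters are all G or C. The windows of the 9 genes held 54.8% (Gas6) to 73.2% (Tyro3) G and C, apart from a second Elmo1 start site at 43.6%. Stab1, without the Sp1 letters, was at 57.2%. Whether composition bears on the number of matches was not tested. The median over all promoters was 52.4%. The count is per gene, Elmo1 with 2 windows, whereas the share is per promoter. The GAS letters occurred before Lrp1 and before a second Elmo1 start site, and in 7.02% of promoters. Of the other motifs, GAGGAAG (the PU.1 core) occurred before Axl alone and in 10.6% of promoters, and GTGGGCG (EGR, which can overlap the Sp1 letters) before Axl and Tyro3 and in 7.02% of promoters. TGANTCA (AP-1), GGGNNTTCC (NF-kappaB), the interferon element ISRE, AGGTCA (the nuclear receptor site) and CACGTG (the E-box) had no match in the 9 genes, and occurred in 6.75%, 4.98%, 2.98%, 14.02% and 6.02% of promoters in that order. A match is a description of the letters, and no binding was measured.

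Set per kilobase of merged exons, the order of the genes differed between states. In M1 KD, Tgm2 had the highest level at 268 ± 47.6 CPM per kb, followed by Mertk at 130.5 ± 51.2 CPM per kb (SD, n = 2). In M1 NS these were also the top genes, Tgm2 at 381 ± 101 and Mertk at 131 ± 9.47 CPM per kb (n = 3). In M0 KD the top gene was Gas6 at 195 ± 36.2 CPM per kb, followed by Lrp1 at 148 ± 29.9 CPM per kb, and their mean ± SD ranges overlapped. In M0 NS, Gas6 stood at 212 ± 32.3, Itgb5 at 154 ± 44.4, Stab1 at 147 ± 32.2 and Lrp1 at 139.7 ± 17.9 CPM per kb, all with mean ± SD ranges that overlap the next. In M0 NS replicate 4, Itgb5 and Stab1 stood above Gas6. Tyro3 was lowest in every group, at group means of 0.0284 to 0.0649 CPM per kb. Merged exons cover all annotated transcripts, and for Elmo1 they add up to 12580 bases, against 5464 in its longest transcript, which lowers its level on this scale. Gene positions below are those of GENCODE M21 on GRCm38.

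**Figure D1:**
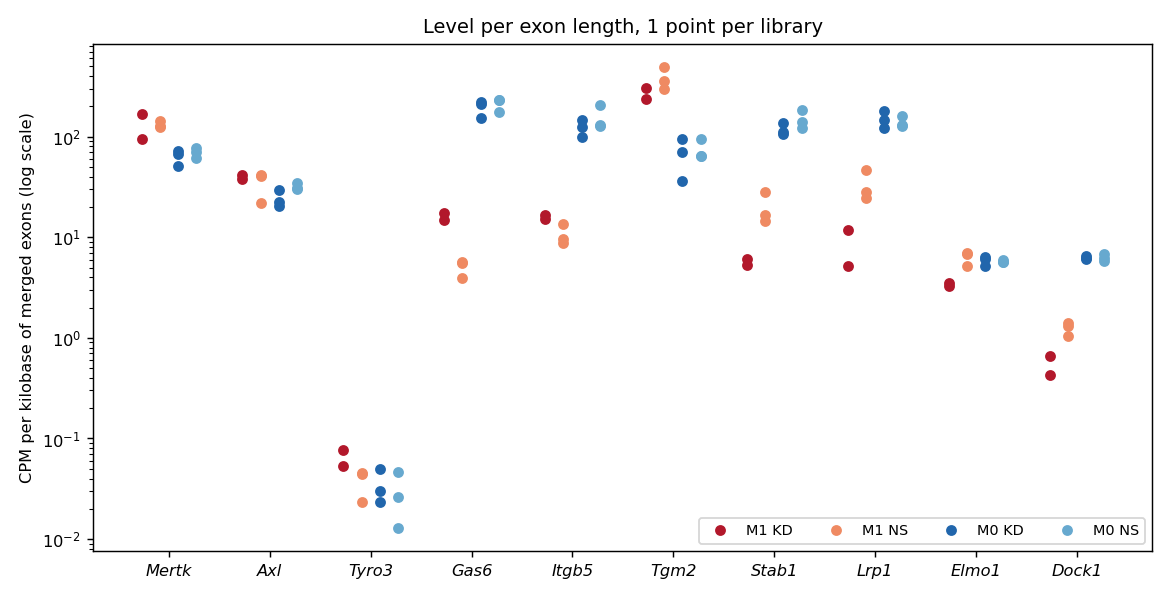
Level of each gene in CPM per kb of merged exons (log axis), with a point per library coloured by group (2 libraries of M1 KD and 3 of each other group). By group mean, Tgm2 and Mertk lead in M1 KD and M1 NS, whereas Gas6 leads in M0 KD and M0 NS.

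Mertk (chr2:128698956-128802894, plus strand), the TAM kinase best known for apoptotic cell uptake by macrophages, was higher in M1 than in M0 cells with either gapmer, and its M1 libraries with the KD gapmer lay on both sides of those with NS. It had 409 and 723 CPM in M1 KD and 617, 553 and 540.2 CPM in M1 NS. In M0 KD it had 309.9, 290.5 and 219 CPM, against 331, 307 and 265 CPM in M0 NS. No M1 library reached as low as an M0 library, while the KD and NS ranges overlapped within each state. The log2 fold change was 0.92 (SE 0.21, edgeR adjusted p = 0.00239) for M1 NS over M0 NS and 1.05 (SE 0.23, adjusted p = 0.00170) for M1 KD over M0 KD. Between M1 KD and M1 NS it was -0.011, with a 95% interval from -0.51 to 0.49 (adjusted p = 0.977), and without M1 KD replicate 5 or 6 it was 0.34 or -0.48.

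Axl (chr7:25757273-25788705, minus strand), the TAM receptor induced by inflammatory signals, had the smallest log2 fold change of the 3 between M1 NS and M0 NS, 0.12, which did not pass the test (edgeR adjusted p = 0.656). It had 211 and 190.0 CPM in M1 KD, and 209, 203 and 111 CPM in M1 NS. It had 112, 102 and 149 CPM in M0 KD, and 152, 173 and 155 CPM in M0 NS. M1 NS replicate 4 stood well below the other M1 libraries, and all M0 KD libraries lay below all M0 NS libraries, by a narrow margin. M1 KD exceeded M0 KD by 0.73 on the log2 scale (SE 0.24, edgeR adjusted p = 0.0216), but this call was lost without M0 KD replicate 1 (adjusted p = 0.0664), M0 KD replicate 2 (0.0769), M1 KD replicate 5 (0.108) or M1 KD replicate 6 (0.0509). It was also lost with library size as the only scaling, at 0.24 (adjusted p = 0.389). Between M0 KD and M0 NS it was -0.40 (95% interval -0.88 to 0.077, adjusted p = 0.439), and M1 KD against M1 NS gave 0.20 (-0.33 to 0.73, adjusted p = 0.547).

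Tyro3 (chr2:119797733-119818104, plus strand), the TAM receptor best known from the nervous system and dendritic cells, was near the limit of detection. Its raw counts were 12 and 13 in M1 KD and 10, 7 and 5 in M1 NS. They were 12, 6 and 9 in M0 KD and 7, 3 and 12 in M0 NS. No comparison called it, and the interval for M1 KD over M1 NS ran from -0.57 to 2.12 on the log2 scale, an interval that holds changes of either sign.

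Summed per kb over the 3 TAM genes, Mertk made up 75.3 ± 8.71% in M1 KD, 79.4 ± 4.87% in M1 NS, 72.0 ± 7.78% in M0 KD and 68.5 ± 2.75% in M0 NS (SD). Axl supplied nearly all of the remainder, and Tyro3 at most 0.0531% in any library.

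Gas6 (chr8:13465374-13494490, minus strand), the ligand that bridges phosphatidylserine to the TAM receptors, showed the widest range of the 10 genes between M1 NS and M0 NS and was the gene called higher in M1 KD than in M1 NS. It had 44.1 and 37.9 CPM in M1 KD, against 14.1, 14.5 and 10.03 CPM in M1 NS. In M0 KD it had 541, 558 and 390.4 CPM, against 593, 583 and 446 CPM in M0 NS. Both M1 KD libraries exceeded every M1 NS library, and both remained far below every M0 library. M1 KD was 3.18-fold higher than M1 NS (log2 fold change 1.67, SE 0.21, edgeR adjusted p = 1.43e-04). M1 NS against M0 NS gave -5.39 (SE 0.23, adjusted p = 5.76e-09), and M1 KD against M0 KD gave -3.60 (SE 0.25, adjusted p = 2.61e-07). Between M0 KD and M0 NS it was -0.12, with an interval from -0.53 to 0.29 (adjusted p = 0.781). The knockdown effect was higher in M1 than in M0 by 1.79 log2 units (SE 0.29, adjusted p = 0.00114).

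Set against its receptors per kb, Gas6 RNA was 0.0999 ± 0.0384 of the TAM sum in M1 KD and 0.0303 ± 0.00354 of it in M1 NS. The ratio was 2.23 ± 0.299 in M0 KD and 2.09 ± 0.159 in M0 NS (SD). Gas6 RNA thus exceeded the TAM sum in every M0 library and lay below it in every M1 library. The 2 M1 KD ratios, 0.127 and 0.0727, stood above the highest M1 NS ratio of 0.0340. Other ligands were not part of the ratio. Among them, Pros1 had means of 23.7 CPM in M1 KD, 14.9 CPM in M1 NS, 67.6 CPM in M0 KD and 53.4 CPM in M0 NS. These ratios use the same counts as the fold changes and received no test.

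By the likeness of group profiles (root mean square difference of the 4 centred group means of log2 CPM, among 8321 genes whose log2 CPM averaged 3 or more), the nearest genes to Gas6 were Sulf2 (0.10), Lpin1 (0.10) and Tmem154 (0.18). The nearest to Mertk were Rnf121 (0.019), Rad9a (0.029) and Med13l (0.034). For Axl they were Fkbp2, Shkbp1 and Men1, at 0.028 to 0.035. For Tyro3, among 8322 genes, they were 9430016H08Rik, Ppp2r3c and Tiprl, at 0.041 to 0.059, but its few counts per library leave its profile imprecise. The difference was not scaled to the size of a gene's changes, so its values do not rank these 4 genes by closeness of match. A profile of 4 group means is short, and its points share the libraries and their scaling.

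**Figure D2:**
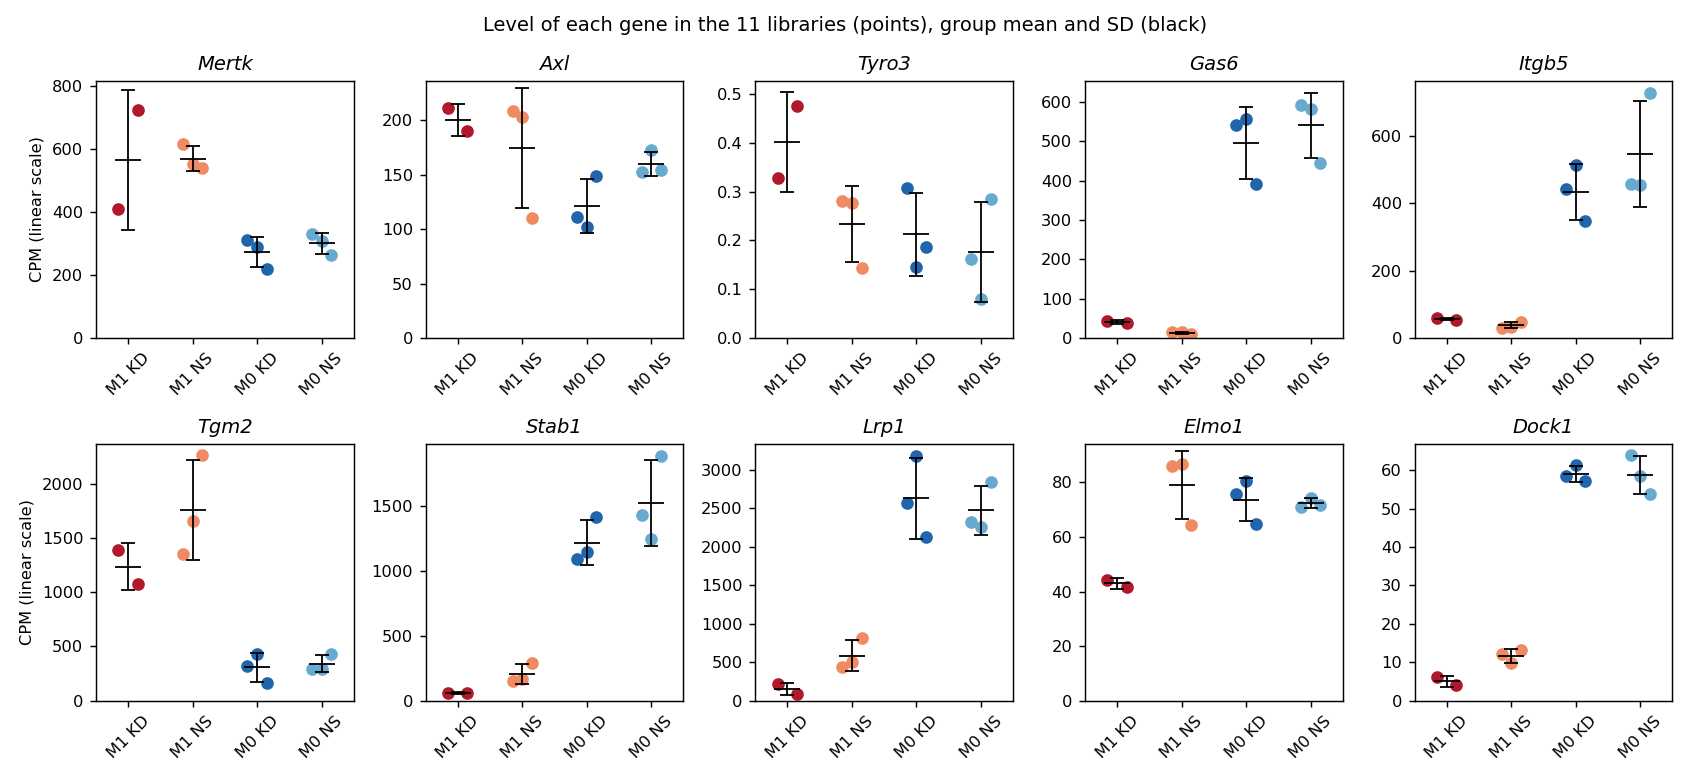
Level of each of the 10 genes in every library in CPM (linear axis from 0, with its own range per gene), with points for libraries and black lines for the group mean and SD. For Gas6 the 2 M1 KD libraries sit at 37.9 and 44.1 CPM, above the M1 NS libraries at 10.03 to 14.5 CPM and below all M0 libraries, which start at 390.4 CPM.

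Itgb5 (chr16:33829665-33949338, plus strand), the beta subunit that pairs with integrin alpha v to bind Mfge8 on apoptotic cells, was lower in M1 than in M0 cells. It had 59.4 and 54.4 CPM in M1 KD and 30.8, 34.0 and 48.3 CPM in M1 NS. It had 442, 514 and 349 CPM in M0 KD and 459, 454 and 729 CPM in M0 NS. Replicate 4 was the highest library in both M1 NS and M0 NS, and the M1 KD libraries lay above all of M1 NS. M1 NS against M0 NS gave a log2 fold change of -3.86 (SE 0.25, edgeR adjusted p = 1.49e-07), and M1 KD against M0 KD gave -2.93 (SE 0.29, adjusted p = 3.82e-06). For M1 KD over M1 NS, 0.59 (SE 0.25) did not pass the test (adjusted p = 0.0838), although it passed in 5 of 22 alternatives, among them DESeq2 (adjusted p = 0.0456) and the fit without M1 NS replicate 4 (0.0181). The difference of knockdown effects, 0.93, missed the threshold as well (adjusted p = 0.0612) and passed in 6 of 21 alternatives.

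Tgm2 (chr2:158116402-158146436, minus strand), a protein cross-linking enzyme that also serves as a co-receptor beside integrin beta 3, went the other way between states. It had 1389 and 1079.5 CPM in M1 KD and 1354, 1656 and 2263 CPM in M1 NS. It had 321, 432 and 166 CPM in M0 KD and 293, 296 and 432 CPM in M0 NS. Every M1 library exceeded every M0 library, while the KD and NS ranges overlapped in both states. The log2 fold change was 2.37 for M1 NS over M0 NS (SE 0.33, edgeR adjusted p = 5.98e-05) and 2.01 for M1 KD over M0 KD (SE 0.34, adjusted p = 3.20e-04). Between M1 KD and M1 NS it was -0.51 (95% interval -1.27 to 0.26, adjusted p = 0.277). In M0 KD against M0 NS it was -0.15, with an interval from -0.83 to 0.52.

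Stab1 (chr14:31139013-31168641, minus strand), a scavenger receptor that binds phosphatidylserine directly, was lower in M1 than in M0 cells and lower again in M1 KD than in M1 NS. It had 62.4 and 55.1 CPM in M1 KD, against 151, 169.7 and 289.9 CPM in M1 NS. It had 1091, 1142 and 1410.4 CPM in M0 KD, against 1424, 1243 and 1884 CPM in M0 NS. Its M1 KD libraries were close together and well under the lowest M1 NS library. M1 KD against M1 NS gave a log2 fold change of -1.79 (SE 0.29, edgeR adjusted p = 6.74e-04), equal to a 3.46-fold higher level in M1 NS. M1 NS against M0 NS gave -2.90 (SE 0.26, adjusted p = 1.84e-06), and M1 KD against M0 KD gave -4.37 (SE 0.33, adjusted p = 5.47e-07). Its change in M0 KD against M0 NS was -0.32 (95% interval -0.85 to 0.21, adjusted p = 0.558).

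Lrp1 (chr10:127538161-127621148, minus strand), the large endocytic receptor that binds calreticulin on dying cells, was likewise lower in M1 than in M0 cells and lowest in M1 KD, where its spread was wide. It had 211 and 92.7 CPM in M1 KD, against 437, 504 and 818 CPM in M1 NS. It had 2571, 3186 and 2133 CPM in M0 KD, against 2327, 2259.8 and 2841 CPM in M0 NS. The M1 KD replicates differed more from each other than those of any other group relative to their mean, yet both lay under every M1 NS library. M1 KD against M1 NS gave -1.95 (SE 0.36, edgeR adjusted p = 0.00161), and -2.67 (adjusted p = 0.00130) without M1 KD replicate 5. M1 NS against M0 NS gave -2.08 (SE 0.31, adjusted p = 1.29e-04), and M1 KD against M0 KD gave -4.11 (SE 0.41, adjusted p = 4.48e-06), or -4.83 without M1 KD replicate 5. M0 KD against M0 NS gave 0.087, with an interval from -0.57 to 0.75 (adjusted p = 0.915).

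Elmo1 (chr13:20090596-20608353, plus strand), the scaffold that binds Dock1 and relieves its inhibition, was lower in M1 KD than in each of the other 3 groups. It had 44.4 and 41.7 CPM in M1 KD and 85.9, 86.7 and 64.5 CPM in M1 NS. It had 75.7, 80.6 and 64.9 CPM in M0 KD and 70.9, 74.4 and 71.7 CPM in M0 NS. The M1 NS, M0 KD and M0 NS ranges overlapped, and M1 KD lay below all of them. M1 KD against M1 NS gave -0.88 (SE 0.15, edgeR adjusted p = 0.00101), and M1 KD against M0 KD gave -0.78 (SE 0.15, adjusted p = 8.36e-04), a call lost with the transcript length trend described below removed (-0.28, adjusted p = 0.130). M1 NS against M0 NS gave 0.13 (95% interval -0.16 to 0.42, adjusted p = 0.436), and M0 KD against M0 NS gave 0.027 (interval -0.26 to 0.31).

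Dock1 (chr7:134670654-135173639, plus strand), the Rac exchange factor of the pair, was lower in M1 than in M0 cells as well. It had 6.09 and 3.99 CPM in M1 KD and 12.1, 9.70 and 13.2 CPM in M1 NS. It had 58.5, 61.3 and 57.1 CPM in M0 KD and 63.9, 58.5 and 53.9 CPM in M0 NS. The M0 groups overlapped fully, and the M1 KD libraries lay under the lowest M1 NS library. M1 KD against M1 NS gave -1.20 (SE 0.19, edgeR adjusted p = 5.43e-04), and M1 NS against M0 NS gave -2.33 (SE 0.16, adjusted p = 2.35e-07). M1 KD against M0 KD gave -3.54 (SE 0.21, adjusted p = 7.58e-08), while M0 KD against M0 NS gave 0.0051, with an interval from -0.33 to 0.34.

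Counted over the 10 genes, M1 KD against M1 NS called 5, with Gas6 higher and Stab1, Lrp1, Elmo1 and Dock1 lower. Over all genes edgeR called 36.8% in that comparison, 17.6% higher and 19.2% lower (2645 and 2890 genes, or 3454 higher and 2177 lower with upper-quartile scaling). The CPM ranges did not overlap for 7 of the 10 genes, among them Tyro3 with its low counts, against 52.4% of all genes. The median size of the log2 fold change was 0.83 over the 10 genes and 0.56 over all genes. Only 3104 genes were called when the M1 groups were fitted alone, and 3658 without M1 KD replicate 5.

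M0 KD against M0 NS called 0 of the 10 genes by edgeR, DESeq2 and limma-voom alike, and 0 reached an unadjusted p under 0.05. Over all genes edgeR called 0%, with 1947 genes (13%) at an unadjusted p under 0.05. DESeq2 called 221 genes, and the M0 groups fitted alone gave 1103. Axl was the gene whose CPM ranges did not overlap, against 35.1% of all genes.

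M1 NS against M0 NS called 7 of the 10 genes, with Mertk and Tgm2 higher and Gas6, Itgb5, Stab1, Lrp1 and Dock1 lower. Over all genes edgeR called 55.5%, 26.9% higher and 28.6% lower (4044 and 4294 genes). The ranges did not overlap for the same number, 7 of 10, against 61.4% of all genes. The count of members called was thus not far from the background, whereas the median size of their log2 fold change, 2.20, was above that of all genes, 0.70. With library size as the only scaling, the median of all genes moved by -0.42 log2 units, the split became 2348 higher and 6447 lower, and the same 7 genes kept their directions.

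M1 KD against M0 KD called 9 of the 10 genes, 3 higher (Mertk, Axl and Tgm2) and 6 lower (Gas6, Itgb5, Stab1, Lrp1, Elmo1 and Dock1). Over all genes edgeR called 58.3%, 26.9% higher and 31.4% lower (4040 and 4715 genes, or 2376 higher and 7077 lower with library size only, which put the median of all genes at -0.59). The ranges did not overlap for 10 of 10 genes, against 74.9% of all genes. These include Tyro3, which was not called. Its ranges were 0.329 to 0.475 CPM in M1 KD and 0.145 to 0.308 CPM in M0 KD, close together and near the limit of detection.

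The knockdown effect in M1 minus that in M0 tests the difference of the 2 effects itself. It called 5 of the 10 genes, where edgeR called 27.3% of all genes, 13.1% higher and 14.2% lower (1965 and 2130 genes, or 2474 higher and 1705 lower with upper-quartile scaling). Gas6 was higher, by 1.79 log2 units. Stab1 (-1.47, adjusted p = 0.0125), Lrp1 (-2.04, adjusted p = 0.00786), Elmo1 (-0.90, adjusted p = 0.00659) and Dock1 (-1.21, adjusted p = 0.00387) were lower. Without M1 KD replicate 5, the Lrp1 difference was -2.75. Mertk (0.13), Axl (0.60), Tyro3 (0.53), Itgb5 (0.93) and Tgm2 (-0.36) did not pass. The comparisons share libraries, so they are not independent of each other.

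**Figure D3:**
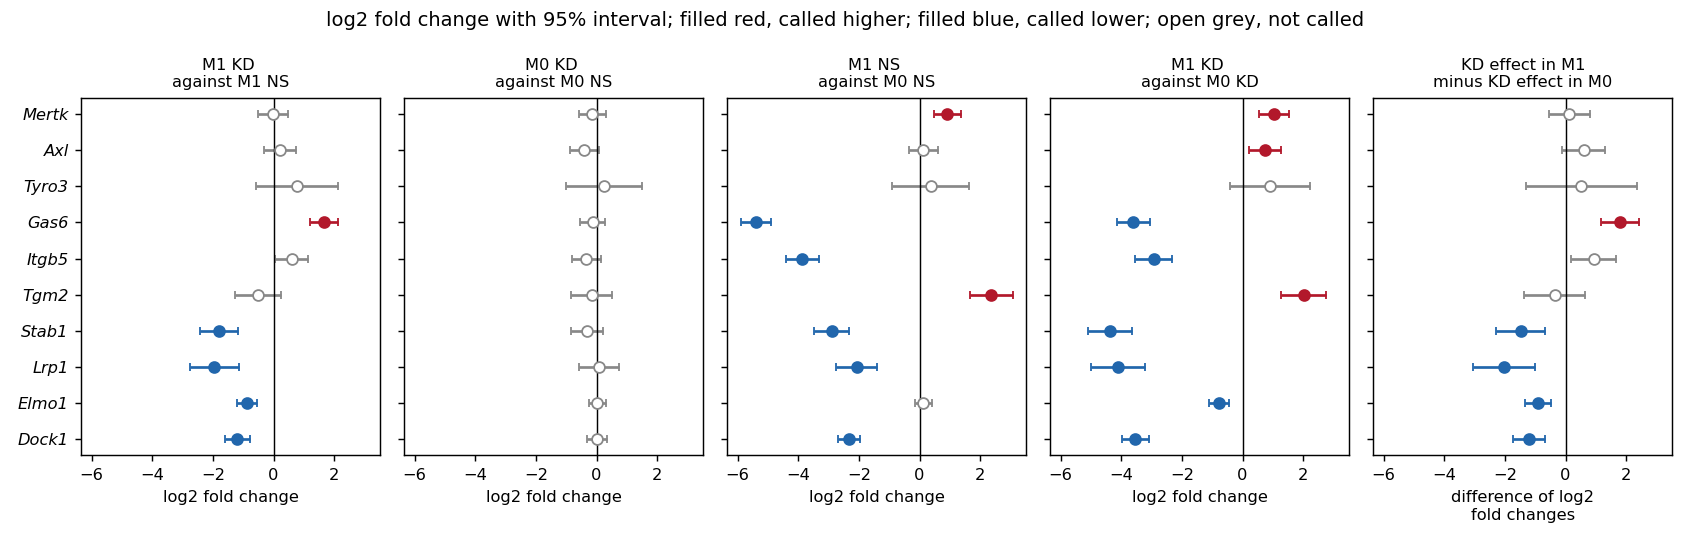
Log2 fold change of the 10 genes in the 5 comparisons, with 95% intervals. Red marks genes called higher, blue genes called lower and open grey genes not called. Gas6 is the red point in M1 KD against M1 NS at 1.67, and no point is coloured in M0 KD against M0 NS.

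The 4 genes called lower in M1 KD than in M1 NS have the 4 longest transcripts of the 10: 14888 bases for Lrp1, 7999 for Stab1, 6807 for Dock1 and 5464 for Elmo1, against 2548 for Gas6, the shortest. Over all genes the same comparison moved with length. The median log2 fold change was 0.21 for 2512 genes of 1000 to 2000 bases and -0.34 for 906 genes of 7500 bases or more, of which 37.3% were called lower. In M0 KD against M0 NS the medians ran the other way, at -0.092 and 0.16 in those classes. After each library's smooth dependence on exon number, GC content and length was subtracted, M1 KD against M1 NS kept its 5 calls, at 1.41 for Gas6, -1.57 for Stab1, -1.78 for Lrp1, -0.75 for Elmo1 and -0.84 for Dock1. The difference of knockdown effects then held 3 calls, as Stab1 (-1.27, adjusted p = 0.0521) and Dock1 (-0.64, adjusted p = 0.0536) missed the threshold. M1 KD against M0 KD lost Elmo1 (-0.28, adjusted p = 0.130) and had smaller changes for Stab1 (-3.77), Lrp1 (-3.48) and Dock1 (-2.77).

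**Figure D4:**
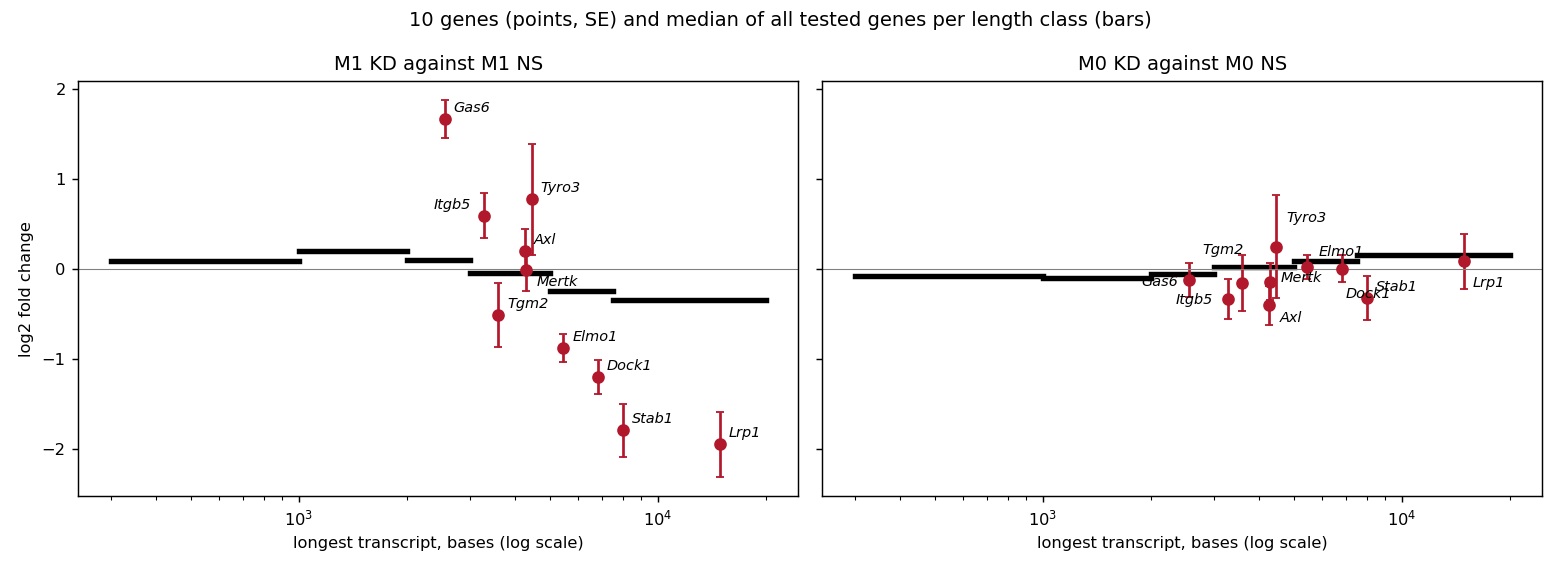
Log2 fold change of the 10 genes (points, bars are SE) against the length of the longest annotated transcript (log axis), with black bars for the median of all tested genes per length class. In M1 KD against M1 NS the medians fall to -0.34 in the longest class and Stab1 and Lrp1 lie below them, whereas in M0 KD against M0 NS the medians rise to 0.16.

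Of 117 other genes of efferocytosis in 8 lists, 108 were tested, and M1 KD against M1 NS called 24 higher and 33 lower, beside 17.6% higher and 19.2% lower over all genes. The engulfment signalling list, which holds other partners of the Elmo1 and Dock1 route, had 0 of 16 called higher and 7 called lower, against the same 17.6% and 19.2% of all genes, with a median log2 fold change of -0.49 (all genes 0.0010). Dock5, an exchange factor of the Dock family, was at 3.16 ± 0.439 CPM in M1 KD and 13.6 ± 2.73 CPM in M1 NS (log2 fold change -2.11, edgeR adjusted p = 2.17e-05). Crk, the adaptor that couples receptors to Dock1, was at 56.5 ± 11.5 CPM in M1 KD and 207 ± 15.8 CPM in M1 NS (-1.87, adjusted p = 1.27e-05). Removal of the length trend left 8 of the list lower, and the fit of the M1 groups alone left 3. In M1 NS against M0 NS the list had 7 called higher and 2 lower, where 26.9% and 28.6% of all genes were, with Rac2 (1.70) and Ptk2 (1.66) higher and Dock5 (-1.05) lower.

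The other bridging molecules and eat-me proteins had 4 of 12 called higher and 2 lower in M1 KD against M1 NS (17.6% higher and 19.2% lower over all genes), with a median of 0.42. Mfge8, the bridge that integrins with Itgb5 or Itgb3 bind, was at 193 ± 47.0 CPM in M1 KD and 52.0 ± 7.77 CPM in M1 NS (log2 fold change 1.89, edgeR adjusted p = 1.50e-04). Lgals3, a galectin that binds Mertk, was at 4223 ± 1617 CPM in M1 KD and 815 ± 43.1 CPM in M1 NS (2.37, adjusted p = 1.82e-05). Calr, the calreticulin that Lrp1 recognises, was at 712 ± 196 CPM in M1 KD and 1313 ± 44.3 CPM in M1 NS (-0.88, adjusted p = 0.00316), and Thbs1, a bridge to Cd36 and integrins, was lower too (-1.07). In M1 NS against M0 NS the list had 2 called higher and 6 lower, where 26.9% and 28.6% of all genes were. The higher genes were Thbs1 (3.95) and Edil3 (3.02), a bridging protein related to Mfge8, and the lower ones included Mfge8 (-1.74) and Pros1, the second TAM ligand (-1.84).

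The other apoptotic cell receptors had 4 of 14 called higher and 2 lower in M1 KD against M1 NS, a share not far from that of all genes (17.6% higher and 19.2% lower). Itgb3, the beta subunit that shares alpha v with Itgb5, was at 17.99 ± 0.252 CPM in M1 KD and 6.69 ± 3.68 CPM in M1 NS (log2 fold change 1.44, edgeR adjusted p = 0.0129). Cd300lb, a receptor for phosphatidylserine, was at 4.81 ± 0.648 CPM in M1 KD and 22.2 ± 1.12 CPM in M1 NS (-2.20, adjusted p = 4.26e-06). Stab2, the paralog of Stab1, was higher in M1 KD (1.42) at under 1 CPM in both M1 groups, while in M1 NS against M0 NS it was lower by a log2 fold change of -7.06.

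The do-not-eat-me and receptor shedding list had 0 of 11 called higher and 6 lower in M1 KD against M1 NS (17.6% higher and 19.2% lower over all genes), and 3 lower when the M1 groups were fitted alone. Sirpa, the inhibitory receptor for Cd47, was at 590.2 ± 22.8 CPM in M1 KD and 1133 ± 104 CPM in M1 NS (-0.94, edgeR adjusted p = 0.00132), and the metalloprotease gene Adam9 was at -0.96. The 12 transcription factors tied to efferocytosis genes had 4 higher and 6 lower beside the same background. Maf, a macrophage transcription factor, was at 54.0 ± 29.95 CPM in M1 KD and 302 ± 48.4 CPM in M1 NS (-2.48, adjusted p = 1.17e-04), and Nr4a1 was lower as well (-2.13), whereas Rxrb, a partner of lipid-sensing nuclear receptors, was higher (1.04). Pparg, a lipid-sensing nuclear receptor, was higher too (1.05), at 1.86 ± 1.02 CPM in M1 KD and 0.916 ± 0.0747 CPM in M1 NS.

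In the same comparison and beside the same 17.6% higher and 19.2% lower of all genes, the phagosome maturation list had 7 of 20 higher, among them the lysosomal protease gene Ctsd (1.61) and Rab34 (1.48), and 2 lower, the small GTPase genes Rab39 (-2.37) and Rab14 (-0.74). Rab39 was low throughout, at 0.421 ± 0.440 CPM in M1 KD and 2.06 ± 0.487 CPM in M1 NS. The response list, genes that change after a meal of apoptotic cells, had 4 of 16 higher, with Sgk1 (2.26) and the ornithine decarboxylase gene Odc1 (1.21), and 7 lower, with the cholesterol exporter gene Abca1 (-1.29) and the cystine transporter gene Slc7a11 (-1.65). TAM signalling feedback had 1 of 7 higher, Socs1 (1.16, edgeR adjusted p = 0.00755), and 1 lower, Ifnar1 (-0.36, adjusted p = 0.04996). Socs1 and Socs3, inhibitors of cytokine signalling that TAM receptors induce, were among the higher genes of M1 NS against M0 NS (7.13 and 6.14). In M0 KD against M0 NS, edgeR called 0 of the 108 genes, as it called 0 of all 15024 genes.

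**Figure D5:**
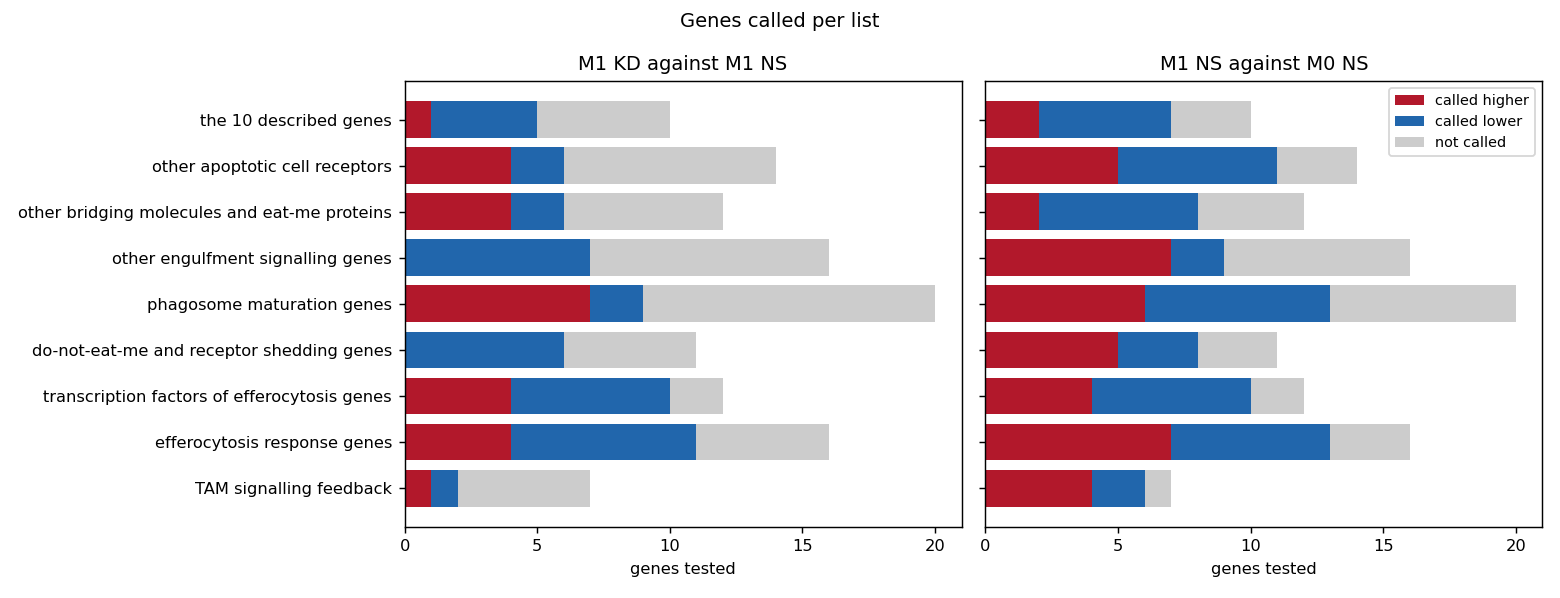
Number of tested genes called higher (red), called lower (blue) and not called (grey) among the 10 genes and in each of the 8 lists, for M1 KD against M1 NS and for M1 NS against M0 NS. The engulfment signalling list has 7 lower and 0 higher in the first panel, and 7 higher and 2 lower in the second.

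Markers of other cells also differed between groups, and their part in these results was not tested. Summed neutrophil and precursor markers were 199 to 209 CPM in M1 KD, 236 to 308 CPM in M1 NS, 669 to 715 CPM in M0 KD and 1247 to 2209 CPM in M0 NS. Of these, 11 of 12 were called lower in M1 NS against M0 NS, beside 28.6% of all genes. Summed stromal markers were 2.61 to 5.89 CPM in M1 KD, 3.15 to 8.55 CPM in M1 NS, 4.88 to 15.6 CPM in M0 KD and 3.89 to 29.8 CPM in M0 NS. Of these, 0 of 8 tested were called in M1 KD against M1 NS, beside 36.8% of all genes. Of the 12 stromal markers, 11 in M1 KD, 8 in M1 NS, 5 in M0 KD and 9 in M0 NS were under 1 CPM in every library of the group. Summed dendritic cell markers were 133 to 619 CPM in M1 KD, 108 to 341 CPM in M1 NS, 7.76 to 15.6 CPM in M0 KD and 12.5 to 13.5 CPM in M0 NS. Ccr7 made up most of this sum in the M1 groups, with means of 347 CPM in M1 KD and 230 CPM in M1 NS, but was at 0.962 CPM in M0 KD and 1.20 CPM in M0 NS. Summed endothelial markers were 135 to 151 CPM in M1 KD, 51.2 to 148 CPM in M1 NS, 52.7 to 62.4 CPM in M0 KD and 47.8 to 71.7 CPM in M0 NS, with 4 of 7 under 1 CPM in every library of each group. Osteoclast markers summed to 72.1 to 88.3 CPM in M1 KD and 43.8 to 66.5 CPM in M1 NS, and to 83.3 to 154 CPM in M0 KD and 115 to 136 CPM in M0 NS. In M1 KD against M1 NS, edgeR called 3 macrophage markers higher and 4 lower of 10, 1 neutrophil marker higher and 2 lower of 12, and 2 of 6 endothelial, 2 of 6 osteoclast, 1 of 8 dendritic cell and 1 of 4 lymphocyte markers higher. Over all genes it called 17.6% higher and 19.2% lower there, and lists this short cannot be told from those shares by their counts. Lymphocyte markers stayed at or under 5.83 CPM and erythroid and mast cell markers at or under 37.1 CPM in every library.

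In the annotation, exons of Stab1 share 112 bases with Nt5dc2, those of Tgm2 share 370 bases with Rprd1b, and those of Gas6 share 34 bases with Tmem255b, each on the opposite strand. Tgm2 also shares 633 exon bases with Gm20412, which had 0 counts, and Elmo1 shares 403 with Gm32036, for which no count was used here. Over all libraries Nt5dc2 had 24637 counts beside 368311 for Stab1, Rprd1b had 8616 beside 329473 for Tgm2, and Tmem255b had 17 beside 132888 for Gas6. No source used here states whether the counting used strand, so reads over those bases cannot be assigned with certainty.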

How the data were processed

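RNA sequencing libraries from 11 samples of mouse bone marrow derived macrophages were analysed. The submitters' processing notes name GRCm38, featureCounts (Subread 1.5.2), STAR 2.5.2b and Trimmomatic 0.36. The authors deposited a table of raw counts for 42375 named genes and a table of normalized signal for 22812 genes. Checked against each other, the deposited signal was the count divided by a constant per library. A row with a blank name held at most 0.000305% of a library's counts and was left out.

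The raw counts were tested with edgeR 4.0.16 (R 4.3.3): filterByExpr (count of 10, total of 15), TMM factors, and a robust quasi-likelihood fit over all 11 libraries with a coefficient per group. Groups came from the sample titles. P-values were adjusted by Benjamini-Hochberg over 15024 genes, with a threshold of 0.05, and standard errors and 95% intervals are those of the log2 fold change. The procedure was run on simulated counts in which a small set of genes changed, in M1 KD alone and evenly in both directions. That setting does not cover the wide differences between M1 and M0 libraries here. Total counts of 30040632 to 43250392 per library leave counts under about 10, as for Tyro3, imprecise.

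The members and the pathway and marker lists were chosen with earlier results of these data known. All 10 members are named in every comparison. Of each list, up to 2 called genes of each direction with the largest change and a mean log2 CPM of at least 1 could be named in a comparison, and for the TAM receptors and Gas6 the 3 genes nearest in group profile. Positions, lengths and overlaps are those of GENCODE M21 (GRCm38), possibly not the annotation the authors counted on, and promoter sequences from RefSeq on GRCm38.p6.

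Alternatives were DESeq2 1.42.0, limma-voom (limma 3.58.1), limma-trend on log2 of the deposited normalized signal plus 1, other scaling factors, other filters, the robust option off, a block for the library number, fits of the compared groups only, and each library left out. Chosen after seeing the data was the subtraction of each library's smooth dependence on exon number, GC content and transcript length (mgcv 1.9.3), which 94.6% of tested genes had values for.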

Additional observations from a re-analysis of the deposited data

Results flagged for a closer look

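For 5 of the 10 genes the change from NS to KD differed between M1 and M0 cells by edgeR's test of that difference. The test took the change in M1 minus the change in M0, adjusted over all 15024 genes, of which 27.3% were called. No other group shares the library numbers of M1 KD. If the numbers mark batches, a batch in M1 KD enters this difference and cannot be told apart from the knockdown. Gas6 had a difference of 1.79 log2 units (adjusted p = 0.00114), from 1.67 in M1 and -0.12 in M0. The differences were -1.47 for Stab1 (adjusted p = 0.0125), -2.04 for Lrp1 (0.00786), -0.90 for Elmo1 (0.00659) and -1.21 for Dock1 (0.00387). With the smooth trend in exon number, GC content and transcript length removed, the calls of Stab1 (-1.27, adjusted p = 0.0521) and Dock1 (-0.64, adjusted p = 0.0536) were lost. Stab1, Lrp1, Elmo1 and Dock1 were each lower in both M1 KD libraries than in every M1 NS library, while their M0 KD and M0 NS ranges overlapped. Over all genes the ranges did not overlap for 52.4% in M1 KD against M1 NS and 35.1% in M0 KD against M0 NS. The ranges come from the same values as the test and are not separate support.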

How the results depend on the processing

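Over the alternatives run, the number of the 10 genes called was 5 to 6 in M1 KD against M1 NS, 0 in M0 KD against M0 NS, 7 in M1 NS against M0 NS, 8 to 9 in M1 KD against M0 KD, and 3 to 6 for the difference of knockdown effects, where the 3 (1 higher and 2 lower) came with the trend in exon number, GC content and length removed. Leaving out each library gave 5 to 6 calls in M1 KD against M1 NS. Every called gene kept its direction in every alternative. Of the single-gene values, 1047 kept both direction and call, 11 passed the threshold in addition, 8 lost it and 35 changed sign, all 35 in genes not called. In M1 KD against M1 NS, Mertk was -0.011, but 0.023 with DESeq2 and with RLE factors, 0.14 with upper-quartile factors, 0.0013 with no filter, 0.0093 with the 1 CPM filter, 0.022 with the compared groups alone, 0.018 with the trend removed and -0.48 to 0.34 with each library left out. In M0 KD against M0 NS, Dock1 was -0.00598 with DESeq2 and -0.00595 with RLE factors, -0.010 with no filter, -0.00573 with limma-trend, -0.20 with the trend removed and -0.055 to 0.070 with each library left out. There, the trend removed also gave 0.024 for Gas6, 0.036 for Tgm2 and -0.15 for Elmo1, and each library left out gave -0.094 to 0.77 for Tyro3, -0.25 to 0.024 for Gas6, -0.48 to 0.15 for Tgm2, -0.074 to 0.22 for Lrp1 and -0.042 to 0.11 for Elmo1. In M1 NS against M0 NS, library size only gave -0.28 for Axl, -0.021 for Tyro3 and -0.27 for Elmo1, and each library left out gave -0.024 to 0.38 for Axl. The difference of effects for Mertk was -0.34 to 0.48 with each library left out. The cause of these changes was not tested. Over all genes, M0 KD against M0 NS called 0, but 221 with DESeq2, 385 with no filter, 1103 with the compared groups alone and 1 without M1 NS replicate 4, and M1 KD against M1 NS called 5535, but 3104 with the compared groups alone and 3658 without M1 KD replicate 5. Whether the library numbers pair the samples was not tested. Deviations of same-numbered M0 KD and M0 NS libraries correlated at 0.14, 0.022 and 0.12. Those of same-numbered M0 NS and M1 NS libraries correlated at 0.090, -0.075 and -0.083, and those of M0 KD and M1 NS at 0.013, -0.00031 and -0.11. Not every library correlated best with its own number. With the label number as a replicate block over 9 libraries, 0 of the 10 genes were called in M0 KD against M0 NS and 7 in M1 NS against M0 NS. No block could be fitted for M1 KD, whose numbers no other group shares. With 2 to 3 libraries per group, the 95% intervals in M0 KD against M0 NS still held changes of up to 0.88 log2 units for the abundant genes, and counts of 3 to 13 limit Tyro3.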

Other observations

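Replicates of a group did not vary evenly. M0 KD replicate 4 had the lowest level of its group for Mertk, Gas6, Itgb5, Tgm2, Lrp1, Elmo1 and Dock1 and the highest for Axl and Stab1. Replicate 4 of M1 NS and replicate 4 of M0 NS were each the highest of their group for Itgb5, Tgm2, Stab1 and Lrp1. The coefficient of variation of Lrp1 was 55.1% in M1 KD and 34.7% in M1 NS, where the medians over all tested genes were 16.8% in M1 KD and 21.5% in M1 NS. The medians were lower in M0 cells, at 10.1% in M0 KD and 12.5% in M0 NS. The main fit nevertheless used an estimate of the spread that all groups shared.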
